A study of Mus musculus with 6 samples.

Results

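The 31 genes described here are the p53 gene Trp53, its regulators Mdm2 and Mdm4, and 28 genes known as p53 targets or p53-linked genes outside the BCL2 family. They were chosen by name from knowledge of the pathway, at a time when earlier results of these data were known. Each matched 1 of the 51912 gene IDs of the count table. All 31 passed the filter on low counts, as did 19017 genes in all. RNA came from primary osteoblasts, the bone-forming cells, of C57BL/6J pups aged 1 d. The cells were taken from the skull cap (calvaria), and both Mark3 alleles were floxed (Mark3 flox/flox). Mark3-KO cells (3 libraries, labelled Mark3-/-) received CRE-adenovirus and WT cells (3 libraries, labelled wild-type) received GFP-adenovirus, each for 24 h. The WT cells therefore also carry the floxed alleles and a virus, and loss of Mark3 and presence of the Cre recombinase cannot be told apart.

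p53 is a transcription factor that is held low by the ubiquitin ligase Mdm2 and its partner Mdm4, and that accumulates when DNA damage kinases block that inhibition. It then activates genes that halt the cell cycle, repair DNA, alter metabolism or start cell death, and it activates Mdm2 as a feedback loop. In bone, p53 is known to restrain osteoblast differentiation. p53 is controlled largely at the level of the protein, which was not measured here, so the mRNA levels of its targets are the readout.

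Mark3, the deleted kinase gene (chromosome 12, 111574523 to 111656221, GRCm38), measured 47.6, 52.4 and 44.1 CPM in the Mark3-KO libraries, against 113, 118 and 118 CPM in the WT libraries. CPM are counts scaled to a fixed TMM-normalised library total. The groups did not overlap, and Mark3 fell by 1.27 on the log2 scale (SE 0.10, adjusted p 0.0153), and by 1.75 after a correction for transcript GC content, described in the next paragraph. Adjusted p-values are from the quasi-likelihood test of edgeR over all genes tested, with the method of Benjamini and Hochberg and a threshold of 0.05, and log2 fold changes are Mark3-KO over WT. Library totals ran from 56925883 to 71445243 counts. The osteoblast markers fixed for the check summed to between 13177 and 14971 CPM in Mark3-KO and between 18679 and 39077 CPM in WT, with Col1a1 and Col1a2 making up most of the sum. Of these 9 markers, Col1a1, Col1a2, Alpl, Bglap and Bglap2 were lower in every Mark3-KO library than in any WT library, as were 27.5% of all genes. Spp1 was higher (1489 CPM on average in Mark3-KO, 1178 CPM in WT), and Runx2, Sp7 and Ibsp overlapped. After the GC correction Col1a1, Ibsp, Bglap and Bglap2 were lower without overlap, as were 16.6% of all genes. Sp7 was then higher without overlap, and Col1a2, Runx2, Alpl and Spp1 overlapped. The osteocalcin genes Bglap and Bglap2 averaged 0.211 and 0.418 CPM in Mark3-KO and 0.703 and 1.30 CPM in WT. Markers of other cells were summed per library over each whole list, including markers that were not tested. Those of macrophages (6 of 6 tested) summed to 223 to 268 CPM in Mark3-KO and 202 to 228 CPM in WT, most of it Lyz2, and those of endothelial cells (4 of 5 tested) to 4.26 to 4.59 CPM in Mark3-KO and 4.17 to 4.52 CPM in WT. Markers of chondrocytes (5 of 5 tested) summed to 352 to 586 CPM in Mark3-KO and 674 to 1744 CPM in WT, and those of skeletal muscle (4 of 5 tested) to at most 5.11 CPM in Mark3-KO and at least 7.39 CPM in WT. No marker of these 5 lists was at 0 counts in all libraries. Corrected for GC content, the sums over the tested markers were 16356 to 20658 CPM in Mark3-KO and 17758 to 21752 CPM in WT for osteoblasts, with overlap. Those of chondrocytes were 678 to 749 CPM in Mark3-KO and 614 to 750.1 CPM in WT, also with overlap. Those of muscle were 2.89 to 5.48 CPM in Mark3-KO and 6.96 to 9.62 CPM in WT. Those of macrophages and endothelial cells were 224 to 264 and 4.31 to 4.45 CPM in Mark3-KO, and 201 to 227 and 4.01 to 4.34 CPM in WT. The mitochondrial genes took 2.07 to 3.22% of the counts in Mark3-KO and 1.05 to 1.66% in WT. The part of these differences in the results was not tested. In such cultures, fewer cells of a type and less RNA per cell cannot be told apart.

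The libraries also stood apart by the GC content of transcripts. In the 1934 tested genes with a GC content of at least 57.2%, the median log2 level relative to the gene's mean over the 6 libraries was -0.19, -0.69 and -0.97 in the Mark3-KO libraries and 1.11, 0.69 and 0.11 in the WT libraries. In the 1964 genes with at most 40.8%, it was 0.07, 0.30 and 0.52 in Mark3-KO and -0.48, -0.30 and -0.07 in WT. Values are therefore given both as fitted and after a GC correction, which removes from each library a smooth curve of these ratios on transcript GC content.

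p53 binds DNA at pairs of a 10-base consensus. RefSeq promoter windows (GRCm38.p6, 250 bases before to 50 bases after an annotated start) were available for 24 members, as 35 windows, and not for Ddb2, Perp, Rrm2b, Tnfrsf10b, Trp53inp1, Xpc and Zmat3. The consensus was searched without mismatch on both strands (it is its own reverse complement), and pairs of it within a gap of at most 13 bases with at least 9 of 10 positions matched in each and the fixed C and G kept. It was found in 12 of 35 member windows (34.3%), against 8.36% of all 32851 windows, and a pair was found in 3 member windows (8.57%), against 2.71% of all windows. The members are p53 targets by choice, so this describes the list and supports nothing further. Sites outside the windows were not searched, so a member without a match may have one elsewhere. Whether p53 binds at a match was not tested. The windows below are those of Cdkn1a, Ccng1 and Mdm2, long known as p53 targets, and of Aen and Ei24, the members furthest below and above 0 among those whose groups did not overlap after the GC correction. Capitals mark the consensus matches and pairs.
Cdkn1a, upstream start, chr17:29090729-29091028, plus strand: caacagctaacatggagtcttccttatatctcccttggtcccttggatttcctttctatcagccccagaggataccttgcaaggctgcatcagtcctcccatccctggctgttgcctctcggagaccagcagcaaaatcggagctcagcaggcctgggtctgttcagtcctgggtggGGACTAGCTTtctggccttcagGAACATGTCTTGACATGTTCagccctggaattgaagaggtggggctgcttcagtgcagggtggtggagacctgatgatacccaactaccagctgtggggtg
Ccng1, chr11:40755237-40755536, minus strand: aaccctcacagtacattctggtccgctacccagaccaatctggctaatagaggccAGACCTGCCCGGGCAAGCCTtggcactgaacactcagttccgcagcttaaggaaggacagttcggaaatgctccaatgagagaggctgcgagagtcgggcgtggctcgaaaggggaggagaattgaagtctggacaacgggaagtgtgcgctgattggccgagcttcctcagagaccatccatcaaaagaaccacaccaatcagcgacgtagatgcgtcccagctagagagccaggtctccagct
Mdm2, chr10:117710709-117711008, minus strand: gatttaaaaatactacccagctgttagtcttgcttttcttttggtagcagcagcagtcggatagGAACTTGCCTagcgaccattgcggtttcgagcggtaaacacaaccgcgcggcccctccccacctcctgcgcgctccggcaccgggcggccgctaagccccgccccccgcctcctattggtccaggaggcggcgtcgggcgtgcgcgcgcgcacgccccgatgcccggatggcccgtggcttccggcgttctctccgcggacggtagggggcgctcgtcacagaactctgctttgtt
Aen, downstream start, chr7:78895808-78896107, plus strand: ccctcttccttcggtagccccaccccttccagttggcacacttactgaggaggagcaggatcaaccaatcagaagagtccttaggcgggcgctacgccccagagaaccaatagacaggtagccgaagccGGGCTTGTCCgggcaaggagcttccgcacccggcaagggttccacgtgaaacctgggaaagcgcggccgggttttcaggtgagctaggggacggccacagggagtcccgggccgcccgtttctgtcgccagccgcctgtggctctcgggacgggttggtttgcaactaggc
Ei24, chr9:36797285-36797584, minus strand: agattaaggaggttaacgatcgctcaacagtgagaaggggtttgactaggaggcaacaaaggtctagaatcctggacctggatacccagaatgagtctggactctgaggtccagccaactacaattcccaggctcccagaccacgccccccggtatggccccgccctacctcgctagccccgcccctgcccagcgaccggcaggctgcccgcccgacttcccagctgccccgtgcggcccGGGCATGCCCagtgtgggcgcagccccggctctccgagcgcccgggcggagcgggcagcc
The last run of capitals in the Cdkn1a window and the run in the Ccng1 window are each a pair without a gap, and the Aen match also lies in the overlapping upstream window of Aen. The 11 members with the consensus in a window split into 5 with a positive and 6 with a negative log2 fold change, and the 13 members with a window but no match into 5 and 8, where 51.1% of all genes were positive. With the GC correction the splits were 5 and 6 with a match and 7 and 6 without, where 54.1% of all genes were positive.

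The members showed no common direction between Mark3-KO and WT cells. Their log2 fold changes were positive for 15 (48.4%, against 51.1% of all genes) and negative for 16, with a median of -0.07, against 0.02 over all 19017 genes tested. In the edgeR test 0 of 31 members passed the threshold in either direction, where 0.216% of all genes passed (0.0473% higher and 0.168% lower). At an unadjusted p below 0.05 there were 19 members (61.3%, against 45.7% of all genes), with 10 higher, against 20.8% of genes, and 9 lower, against 24.8%. The groups' CPM did not overlap for 23 members (74.2%, against 53.3% of all genes), 12 of them higher in Mark3-KO (25.8% of genes) and 11 lower (27.5% of genes). Many adjusted p-values lay just above the threshold, and 16 members had one below 0.055 (51.6%, against 24.8% of all genes). With a threshold of 0.1, 10 members were higher, against 19.7% of all genes, and 9 lower, against 24% (43.7% in either direction). The shares of all genes given here were not matched to the members in level of expression. With a stricter filter of 1 CPM in 3 libraries, 19 of 30 members had an unadjusted edgeR p below 0.05, against 7866 of 14086 genes.

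The DESeq2 Wald test at 0.05 also called 10 members higher, against 14.6% of all genes, and 9 lower, against 21.7% (36.4% in either direction). Limma-voom called 0 members, where it called 0.142% of all genes (0.0368% higher and 0.105% lower). Leaving out 1 library changed the edgeR calls. Without Mark3-KO replicate 1 it called 7 members higher (12.1% of genes) and 8 lower (20% of genes, 32.1% in either direction), and without WT replicate 3 it called 8 higher (12.9% of genes) and 9 lower (20% of genes, 32.9% in either direction). Without any one of the other 4 libraries it called 0 members. With the replicate number as a block, edgeR called 10 members higher and 11 lower (67.7%). It then called 8487 of all 19017 genes (3783 higher and 4704 lower).

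**Figure D1:**
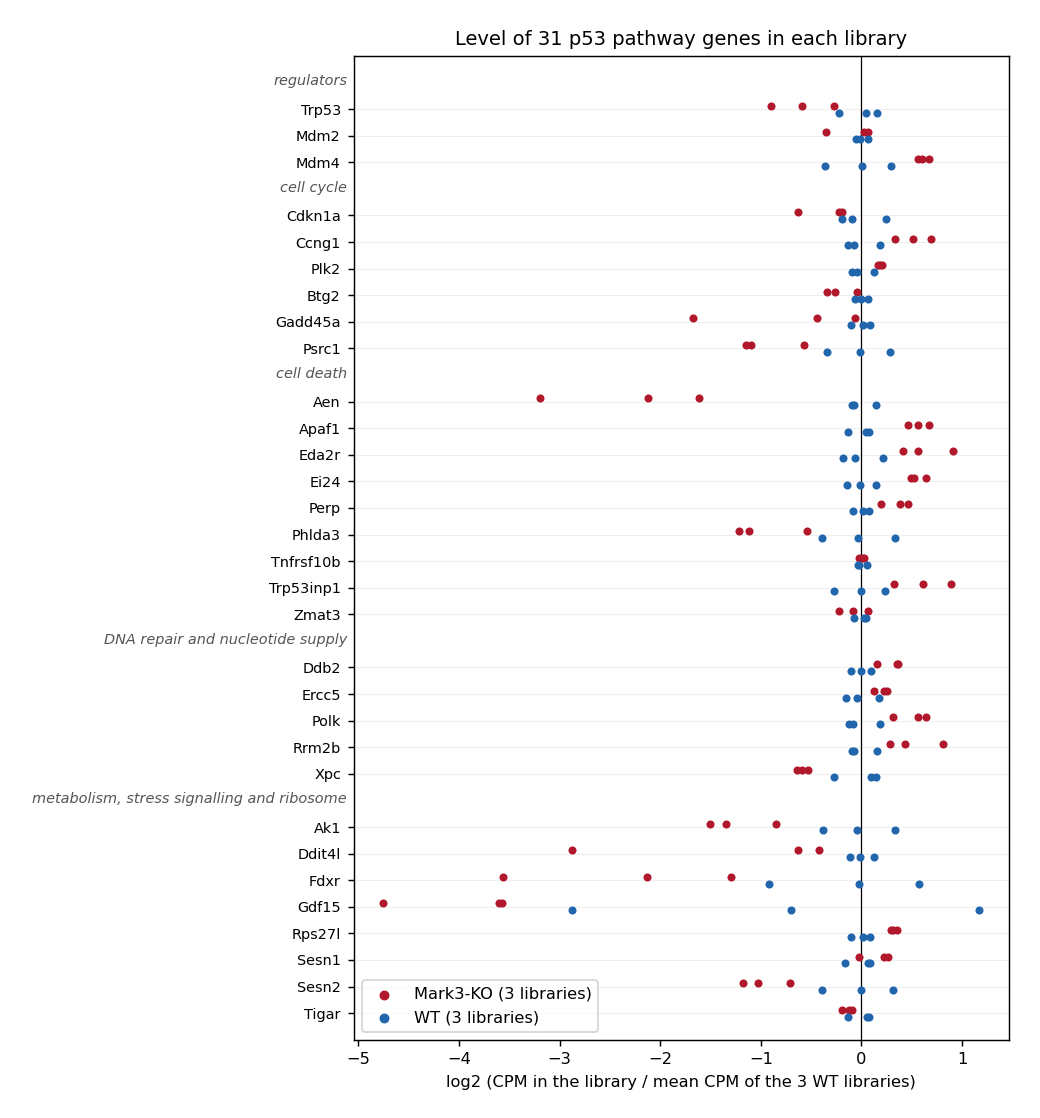
Level of each of the 31 genes in each library as the log2 ratio of its CPM to the mean CPM of the 3 WT libraries, grouped by role, with the 3 Mark3-KO libraries in red above the 3 WT libraries in blue. Red points lie on both sides of 0, and Aen, Fdxr, Gdf15 and Ddit4l have the points farthest to the left.

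Per unit of transcript length, Ccng1 and Rps27l were the most abundant members, at 1387 ± 217 and 813 ± 13.7 TPM in Mark3-KO, against 844 ± 162 and 567 ± 66.0 TPM in WT (SD, n = 3 each). Cdkn1a came next, at 296 ± 44.2 TPM in Mark3-KO and 324 ± 34.2 TPM in WT. Ddb2, Gdf15 and Rrm2b were the least abundant in WT. They averaged 5.91 ± 0.44, 0.433 ± 0.164 and 10.7 ± 2.32 TPM in Mark3-KO, against 4.19 ± 0.036, 5.33 ± 5.73 and 6.43 ± 1.06 TPM in WT. In WT the spread of Gdf15 covered both of the others, while Rrm2b lay above Ddb2 by more than their SDs. TPM were used for this order of levels only, and all levels that follow are CPM.

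Among the regulators, Trp53 itself (chromosome 11, 69580359 to 69591873) measured 103, 82.6 and 66.8 CPM in the Mark3-KO libraries, against 138, 128 and 107 CPM in the WT libraries. All Mark3-KO libraries were below all WT libraries, but the lowest WT library was close to the highest Mark3-KO library, at a log2 fold change of -0.56 (SE 0.18, edgeR adjusted p 0.0615). After the GC correction it was -0.09 (SE 0.08) and the groups overlapped. Mdm2, the ubiquitin ligase that degrades p53 and is itself a p53 target (chromosome 10, 117688875 to 117710758), measured 101, 131 and 134 CPM in Mark3-KO, against 134, 127 and 124 CPM in WT. Replicate 1 of Mark3-KO was the low library, while replicate 2 lay within the WT range and replicate 3 just above it. Mdm2 had a log2 fold change of -0.07 (SE 0.13, edgeR adjusted p 0.682), and of -0.30 (SE 0.11, edgeR adjusted p 0.161) after the GC correction. The corrected levels were 96.6, 120.9 and 119.9 CPM in Mark3-KO, against 151.7, 136.8 and 126.2 CPM in WT, without overlap. Mdm4, which binds p53 and blocks its activity (chromosome 1, 132959484 to 133030561), measured 148, 152 and 160.04 CPM in Mark3-KO, against 77.9, 100.5 and 123 CPM in WT. The 3 Mark3-KO libraries were close together and above the widely spread WT libraries, with a log2 fold change of 0.61 (SE 0.17, edgeR adjusted p 0.0509). After the GC correction it was 0.24 (SE 0.10, edgeR adjusted p 0.203). The annotated pseudogenes Trp53-ps and Mdm4-ps held at most 7 counts in any library.

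**Figure D2:**
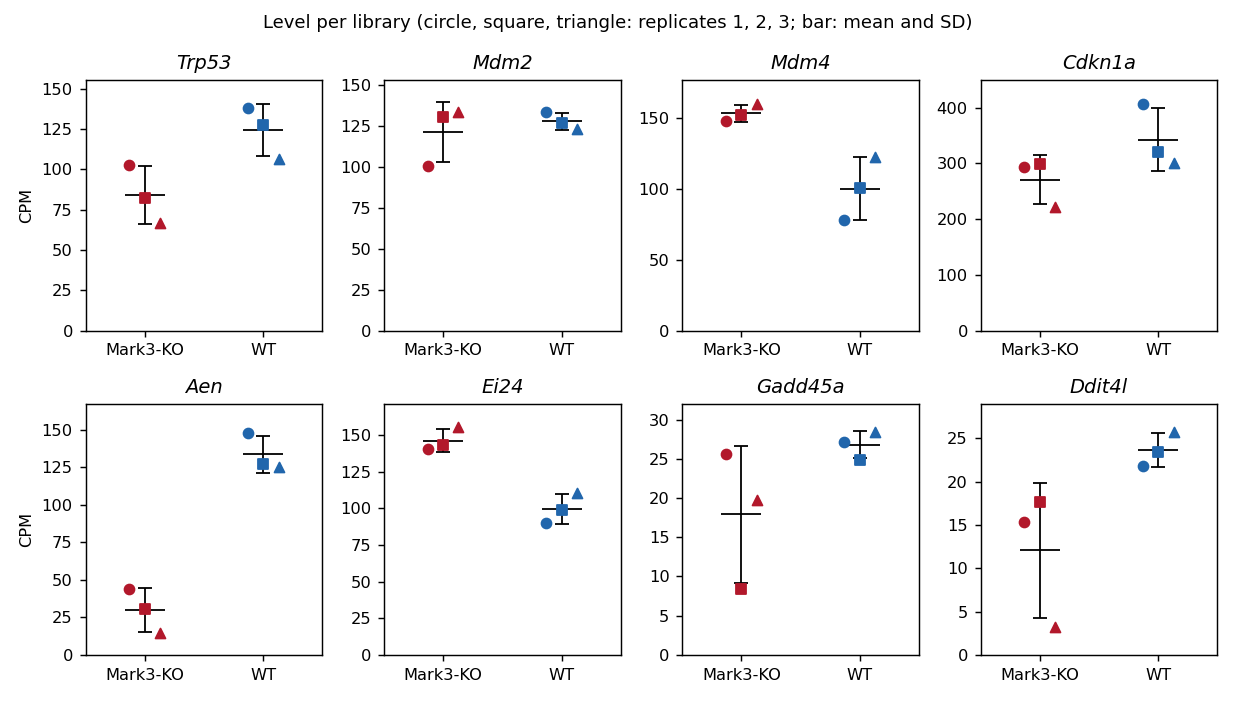
CPM of 8 members in each library, Mark3-KO left of WT in each panel, with circles, squares and triangles for replicates 1, 2 and 3, and black bars for the mean and SD of 3 libraries. Aen stands lower in all Mark3-KO libraries and Ei24 higher, while the low means of Gadd45a and Ddit4l in Mark3-KO rest largely on 1 library each.

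Of the 6 cell cycle genes, 2 had positive and 4 negative log2 fold changes, and 0 passed. Cdkn1a, which encodes the cyclin-dependent kinase inhibitor p21 (chromosome 17, 29090976 to 29100727), measured 293, 299 and 221 CPM in Mark3-KO, against 408, 320.5 and 301 CPM in WT. The highest Mark3-KO library was just below the lowest WT library, at a log2 fold change of -0.34 (SE 0.17, edgeR adjusted p 0.159). The sign turned to 0.31 (SE 0.10, edgeR adjusted p 0.134) after the GC correction, with all Mark3-KO libraries above all WT libraries. Psrc1, which encodes a microtubule-binding protein of the mitotic spindle (chromosome 3, 108383839 to 108388231), measured 45.8, 31.7 and 30.7 CPM in Mark3-KO, against 82.7, 67.3 and 53.7 CPM in WT. It was lower in every Mark3-KO library than in any WT library, at a log2 fold change of -0.91 (SE 0.22, edgeR adjusted p 0.0506), and -0.60 (SE 0.14, edgeR adjusted p 0.0962) after the GC correction. Ccng1, which encodes cyclin G1, an activator of Mdm2 through protein phosphatase 2A, measured 1097, 1246 and 1411 CPM in Mark3-KO, against 796, 828 and 994 CPM in WT. Its groups did not overlap (log2 fold change 0.52, SE 0.14, edgeR adjusted p 0.0506), but the value was 0.01 (SE 0.06) after the GC correction. Plk2, a polo-like kinase of centriole duplication, measured 174, 179 and 176 CPM in Mark3-KO, against 150.1, 146 and 169 CPM in WT, without overlap, at a log2 fold change of 0.19 (SE 0.09) and 0.12 after the GC correction. Btg2, an antiproliferative cofactor of mRNA deadenylation, averaged 90.8 ± 9.93 CPM in Mark3-KO and 105 ± 4.72 CPM in WT, with overlapping groups and log2 fold changes of -0.21 and -0.13 before and after the correction. Gadd45a, a stress sensor of growth arrest and DNA repair, shown by library because its values are uneven and chosen after they were seen, measured 25.6, 8.39 and 19.8 CPM in Mark3-KO, against 27.1, 24.9 and 28.4 CPM in WT. Its log2 fold change of -0.58 (SE 0.37, edgeR adjusted p 0.259) was -0.25 without Mark3-KO replicate 2, the low library, and -0.93 without Mark3-KO replicate 1. Its GC-corrected value was -0.50, with -0.16 and -0.81 without the same libraries. Gadd45a shares 19.1% of its exon bases with the antisense gene E230016M11Rik, which averaged 1.51 CPM in Mark3-KO and 1.65 CPM in WT, and the library kit does not mark strand.

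Of the 9 cell death genes, 6 had positive and 3 negative log2 fold changes, and 0 passed. Aen, an apoptosis-enhancing nuclease induced by p53 (chromosome 7, 78895854 to 78911209, with the promoter window printed above), measured 43.7, 30.8 and 14.6 CPM in the Mark3-KO libraries, against 148, 127 and 125 CPM in the WT libraries. The highest Mark3-KO library was far below the lowest WT library. The means were 29.7 ± 14.6 CPM in Mark3-KO and 134 ± 12.6 CPM in WT (SD, n = 3 each), which is 4.50-fold lower, with a log2 fold change of -2.17 (SE 0.37, edgeR adjusted p 0.0506). At a transcript GC content of 51.6%, the GC correction moved it only to -1.94 (SE 0.32, edgeR adjusted p 0.087), or 3.84-fold lower. Of all 19017 genes tested, 103 had a GC-corrected log2 fold change at or below that of Aen (0.542%). With any 1 library left out, it ran from -2.56 to -1.85 as fitted and from -2.24 to -1.64 after the GC correction. Aen passed as fitted without Mark3-KO replicate 1 (edgeR adjusted p 0.029) or WT replicate 3 (0.0265), where 32.1% and 32.9% of all genes passed. After the GC correction Aen passed without Mark3-KO replicate 1 (edgeR adjusted p 0.0247) or Mark3-KO replicate 3 (0.018). Its edgeR adjusted p was above the threshold when any of the other libraries was left out, at up to 0.154 as fitted and 0.28 after the GC correction. The DESeq2 Wald test gave Aen an adjusted p of 2.33e-06. Aen shares no exon bases with another annotated gene. Its only tested neighbours within 100 kb were Isg20, a related nuclease gene, at a log2 fold change of -1.08 and -0.01 after the GC correction, and Det1, at -0.74 and -0.15.

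Ei24, which encodes a p53-induced membrane protein of the endoplasmic reticulum (chromosome 9, 36779159 to 36797393), lay on the other side. It measured 141, 143 and 155 CPM in Mark3-KO, against 90.1, 98.7 and 110.3 CPM in WT, with no overlap. Its log2 fold change of 0.55 (SE 0.11, edgeR adjusted p 0.0506) became 0.65 (SE 0.11, edgeR adjusted p 0.0915) after the GC correction, the largest positive value among the members. With any 1 library left out, it ran from 0.48 to 0.62 as fitted and from 0.57 to 0.75 after the correction. Ei24 passed as fitted without Mark3-KO replicate 1 (edgeR adjusted p 0.0294) or WT replicate 3 (0.0258), and after the correction without the same libraries (0.0349 and 0.0382). As fitted, 32.1% and 32.9% of all genes passed without these libraries. The range of genes passing with the correction and 1 library left out is given in the closing section. Ei24 shares 6.66% of its exon bases with the antisense gene Gm26787, which averaged 0.04 CPM in Mark3-KO and 0.03 CPM in WT. Apaf1, the scaffold of the apoptosome that activates caspase 9 (chromosome 10, 90989311 to 91082770), measured 148, 159 and 171 CPM in Mark3-KO, against 114, 97.9 and 111 CPM in WT. Its groups did not overlap either, with a log2 fold change of 0.57 (SE 0.10, edgeR adjusted p 0.0506), and 0.34 (SE 0.09, edgeR adjusted p 0.0979) after the GC correction. Of the other 6 genes of this role, Eda2r, Perp, Phlda3 and Zmat3 did not overlap between the groups after the correction. Eda2r, a receptor for ectodysplasin A2, moved from 0.64 to 0.14 on the log2 scale with the correction, and Trp53inp1, a nuclear stress protein that promotes p53 phosphorylation, from 0.63 to 0.04. Perp, a desmosomal membrane protein, was at 0.35 before and 0.29 after it. Phlda3, which competes with the kinase AKT for membrane lipids and has the highest GC content of the members (62.6%), turned from -0.93 (SE 0.25) to 0.57 (SE 0.17, edgeR adjusted p 0.109). The death receptor gene Tnfrsf10b averaged 110.1 ± 1.85 CPM in Mark3-KO and 109.6 ± 3.93 CPM in WT, and the RNA-binding protein gene Zmat3 averaged 295 ± 29.8 CPM in Mark3-KO and 311 ± 13.3 CPM in WT, both with overlapping groups as fitted. Tnfrsf10b was at 0.01 and 0.02 on the log2 scale before and after the correction, and Zmat3 at -0.08 and -0.18.

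The 5 genes of DNA repair and nucleotide supply included 4 with positive log2 fold changes and 1 negative. After the GC correction all 5 lay within 0.5 of 0, as did 78.7% of all genes. Xpc, the damage sensor of nucleotide excision repair (chromosome 6, 91489305 to 91515888), measured 12.5, 11.5 and 12.0 CPM in Mark3-KO, against 19.3, 19.9 and 14.9 CPM in WT. The Mark3-KO libraries were close together and all below WT (log2 fold change -0.59, SE 0.15, edgeR adjusted p 0.0506), but the GC-corrected value was -0.20 (SE 0.11) with overlap. Polk, a translesion DNA polymerase, measured 80.1, 95.2 and 100.4 CPM in Mark3-KO, against 59.2, 60.5 and 73.2 CPM in WT. It had a log2 fold change of 0.51 (SE 0.13, edgeR adjusted p 0.0506), and 0.04 (SE 0.06) after the correction. Rrm2b, the p53-inducible subunit of ribonucleotide reductase, measured 21.2, 23.4 and 30.3 CPM in Mark3-KO, against 16.5, 16.2 and 19.3 CPM in WT, without overlap, at a log2 fold change of 0.53 (SE 0.17) and -0.04 (SE 0.09) after the correction. The endonuclease gene Ercc5 was at 0.20 on the log2 scale and 0.06 after the correction. Ddb2, a damage-binding protein, averaged 4.16 ± 0.34 CPM in Mark3-KO and 3.40 ± 0.23 CPM in WT, at 0.29 on the log2 scale and -0.01 after the correction. Of its exon bases, 23.8% are shared with Acp2 on the opposite strand, which averaged 79.8 CPM in Mark3-KO and 69.8 CPM in WT. Rrm2b (8.04%), Cdkn1a (7.68%) and Tigar (3.3%) also share exon bases with annotated genes on the opposite strand.

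Of the 8 genes of metabolism, stress signalling and the ribosome, 2 had positive and 6 negative log2 fold changes, with a median of -0.96 that was -0.32 after the GC correction. Ak1, an adenylate kinase that balances cellular nucleotides (chromosome 2, 32621758 to 32635058), measured 75.9, 48.3 and 53.6 CPM in Mark3-KO, against 173, 133 and 105 CPM in WT. All Mark3-KO libraries were below WT, at a log2 fold change of -1.20 (SE 0.24, edgeR adjusted p 0.0506), and -0.55 (SE 0.12, edgeR adjusted p 0.0962) after the GC correction, still without overlap. Sesn2, a sestrin that restrains mTORC1 when amino acids are short (chromosome 4, 132492032 to 132510501), measured 79.4, 63.9 and 57.5 CPM in Mark3-KO, against 161, 129.6 and 99.3 CPM in WT. Its log2 fold change turned from -0.96 (SE 0.21, edgeR adjusted p 0.0506) to 0.25 (SE 0.10, edgeR adjusted p 0.173) with the correction. Its relative Sesn1 was at 0.16 and 0.25 before and after it. Gdf15, a secreted stress cytokine (chromosome 8, 70629393 to 70632456), measured 0.258, 0.252 and 0.114 CPM in Mark3-KO, against 6.89, 1.89 and 0.417 CPM in WT. The WT libraries differed among themselves far more than the Mark3-KO libraries did, and the log2 fold change of -3.86 (SE 1.03, edgeR adjusted p 0.0506) was -2.45 without WT replicate 1. After the GC correction it was -2.14 (SE 0.73), and -1.20 without WT replicate 1, and the groups overlapped.

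Fdxr, the mitochondrial ferredoxin reductase that is known to feed back on p53, averaged 1.43 ± 0.96 CPM in Mark3-KO and 5.95 ± 2.86 CPM in WT. The log2 fold change of Fdxr was -2.05 (SE 0.61, edgeR adjusted p 0.0544), and -0.75 (SE 0.34) after the correction. With any 1 library left out, it ran from -2.67 to -1.65 as fitted and, after the correction, from -1.07 to -0.44, the value without Mark3-KO replicate 3. Rps27l, a ribosomal protein of the small subunit, averaged 171 ± 3.68 CPM in Mark3-KO and 137 ± 8.62 CPM in WT (0.32, and -0.07 after the correction). Tigar, which lowers glycolytic flux, averaged 13.7 ± 0.48 CPM in Mark3-KO and 15.1 ± 1.19 CPM in WT, with overlap (-0.13, and -0.09 after the correction). Ddit4l, an inhibitor of mTOR signalling shown by library after its uneven values were seen, measured 15.3, 17.6 and 3.22 CPM in Mark3-KO, against 21.7, 23.4 and 25.7 CPM in WT. All Mark3-KO libraries were below WT, but the log2 fold change of -0.97 (SE 0.55, edgeR adjusted p 0.212) was -0.52 without Mark3-KO replicate 3, the lowest library. The GC-corrected values were -1.16 and -0.70.

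Across the members, the direction of the difference followed the GC content of the transcript, as it did over all genes. The 10 members with the lowest GC content (38.8 to 46.2%) had positive log2 fold changes in 9 cases, with Mdm2 the exception, and 89.3% of all 5836 tested genes in that range were positive. The 10 with the highest GC content (51.6 to 62.6%) were negative in all 10 cases, as were 90.8% of the 6636 genes in that range. The 11 between them were positive in 6 cases, against 63.6% of genes. Pearson's r between GC content and log2 fold change was -0.77 over the 31 members and -0.72 over all genes with a GC value, given as a description since genes of the same libraries are not independent.

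**Figure D3:**
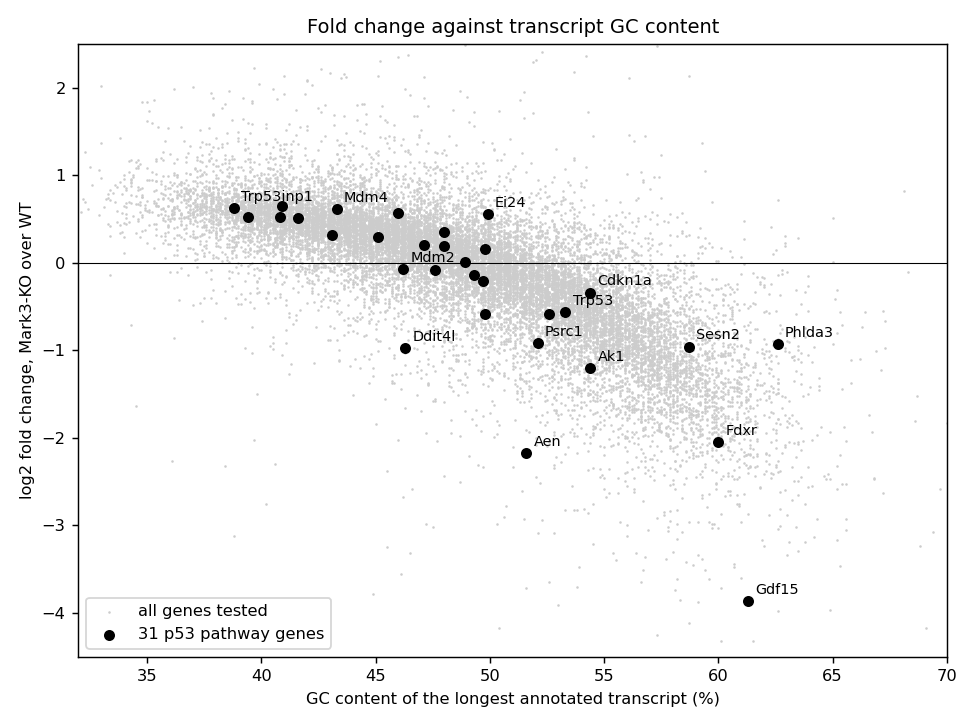
Log2 fold change of Mark3-KO over WT against the GC content of the longest transcript, with the genes tested in grey and the 31 members in black (48 genes outside the axes and 52 without a GC value are not drawn). The members follow the downward band of all genes, with Gdf15, Aen and Ddit4l below it and Ei24 at its upper edge.

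After the GC correction 15 members had positive values (48.4%, against 54.1% of all genes), and 0 of 31 passed the threshold of 0.05 in edgeR's test. Of all genes, 0.379% passed (0.0841% higher and 0.294% lower). At this stage 11 members had an unadjusted p below 0.05 (35.5%, against 26.3% of all genes). The median absolute log2 fold change of the members was 0.24, against 0.55 before the correction, and over all genes it was 0.22, against 0.45. The correction turned the sign of 6 members, namely Cdkn1a, Phlda3 and Sesn2 to positive and Ddb2, Rrm2b and Rps27l to negative. At an adjusted p below 0.1, a combination chosen after seeing the data, Apaf1 and Ei24 were higher, against 2.92% of all genes, and Aen, Ak1 and Psrc1 lower, against 4.91%. Together they were 16.1% of the members, against 7.82% of all genes. The groups' corrected CPM did not overlap for 15 members (48.4%, against 33.1% of all genes), 8 higher (16.5% of genes) and 7 lower (16.6% of genes).

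**Figure D4:**
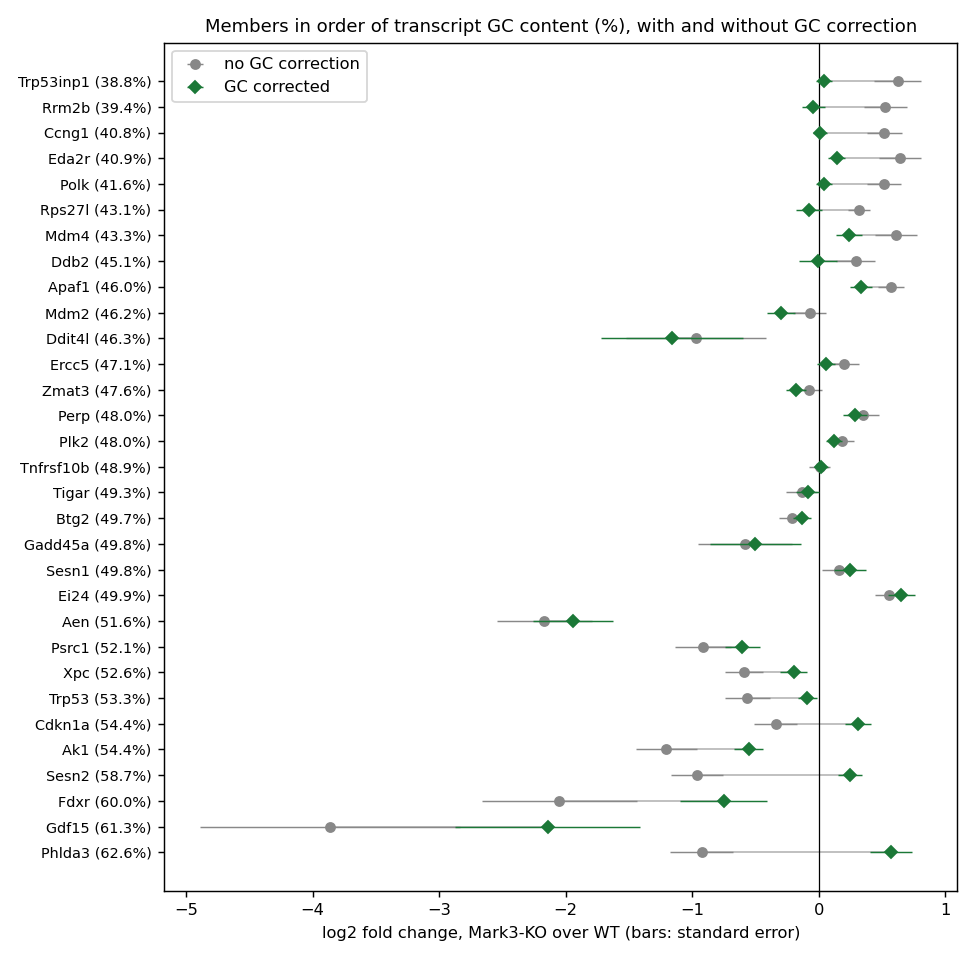
Log2 fold change of Mark3-KO over WT for each member before (grey circles) and after (green diamonds) the GC correction, with bars for the standard error, in order of transcript GC content from 38.8 to 62.6%. Most diamonds lie nearer to 0 than the circles, while Gdf15 is at -2.14, Aen at -1.94, Ddit4l at -1.16 and Ei24 at 0.65.

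Genes that act around p53 were taken from a list of 27 partners, of which 26 were tested and 0 passed in edgeR's test (0.216% of all genes). At an unadjusted p below 0.05, 15 partners were higher, against 20.8% of all genes, and 3 lower, against 24.8%. Limma-voom called 0 partners, and the DESeq2 Wald test called 12 higher, against 14.6% of all genes, and 2 lower, against 21.7%. Without WT replicate 3, edgeR called 15 partners (against 32.9% of all genes), and without Mark3-KO replicate 1 it called 11 (against 32.1% of all genes). All 10 upstream kinases and sensors had positive log2 fold changes, against 51.1% of all genes, with a median of 0.51. Their median GC content was 43.9%, and in the low GC range given above 89.3% of all genes were positive. With the GC correction 9 were positive and 1 negative, against 54.1% of all genes positive, with a median of 0.11. Atm, the kinase that signals double-strand breaks, averaged 107 ± 15.5 CPM in Mark3-KO and 66.3 ± 8.97 CPM in WT (log2 fold change 0.69, SE 0.15, edgeR adjusted p 0.0506), and was at 0.26 (SE 0.06) after the correction. On the log2 scale, Atr, the kinase of stalled replication forks, moved from 0.64 to 0.14, the DNA-dependent kinase gene Prkdc from 0.60 to 0.21, and Nbn, of the complex that senses breaks, from 0.54 to 0.21.

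Among modifiers and relatives of p53, Cdkn2a, whose ARF product inhibits Mdm2, averaged 0.784 ± 0.414 CPM in Mark3-KO and 3.33 ± 1.84 CPM in WT, a log2 fold change of -2.07 (SE 0.56, edgeR adjusted p 0.0509) that was -0.67 (SE 0.28) after the correction. Counts over the whole Cdkn2a gene do not separate its ARF and p16 transcripts. On the log2 scale, before and after the correction, the ubiquitin ligase gene Rfwd2 (Cop1) was at 0.51 and -0.15, the deubiquitinase gene Usp7 at 0.39 and 0.10, and the acetyltransferase gene Kat5 at -0.41 and 0.26. Trp63, a relative of p53, averaged 0.781 ± 0.185 CPM in Mark3-KO and 0.707 ± 0.349 CPM in WT, and Trp73 did not pass the filter on low counts. Among the partners of p21 in the cell cycle, Ccne2 (cyclin E2) moved from 0.82 to 0.17 with the correction, Ccna2 (cyclin A2) from 0.51 to 0.30, Pcna from 0.32 to 0.04 and Ccne1 (cyclin E1) from -0.08 to 0.32. Of the exon bases of Ccne2, 17.4% are shared with Ints8 on the opposite strand. Such shares were 12.5% for Ccna2 with Exosc9 and 12.1% for Kat5 with Rnaseh2c.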

How the data were processed

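RNA-seq counts of 6 libraries (3 Mark3-KO, 3 WT) were used. The values are whole-number counts per gene in 1 table as deposited by the authors. The submitters' processing notes name the build GRCm38 and the tools DESeq2, FastQC, StringTie and HISAT2 (version 2.0.5). Their order and settings, and how shared reads were counted, are not given in the sources used here. Per the labels' protocols, RNA was taken in Trizol and libraries were made with a TruSeq kit that does not mark strand. GENCODE M21 (GRCm38) matched 51719 of 51912 IDs and gave symbols, coordinates and transcript GC content (longest transcript).

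The quasi-likelihood fit used edgeR 4.0.16 under R 4.3.3: filterByExpr, TMM, glmQLFit, and Benjamini-Hochberg adjustment over all 19017 genes. A standard error is the log2 fold change divided by the root of F. The GC correction was an offset: in each library, log2 ratios to the gene mean (prior count 2) were fitted on GC content by a natural spline (6 degrees of freedom). TPM used union exon lengths. Alternatives were the Wald test of DESeq2 1.42.0, limma-voom (limma 3.58.1), scaling by DESeq2 size factors or by library size alone, other filters, a threshold of 0.1, a replicate block and leaving out each library. Fits were run on simulated counts whose spread was set and not taken from these libraries. A trend with GC content was added only to the check of the GC correction. These runs therefore do not measure how the fits perform on these libraries. Members, lists and alternatives were chosen with earlier results of these data known. All members are named, and values by library are given for the regulators, Cdkn1a, and the 3 members with the smallest p in each other role; of each partner list, up to 4 with the smallest p. No 2 libraries were copies of each other (chi-square per degree of freedom at least 77.3). The smallest value, 77.3, was between libraries of different groups, WT replicate 3 and Mark3-KO replicate 1. WT replicate 3 was at 146 from WT replicate 2, and Mark3-KO replicate 1 at 101 from Mark3-KO replicate 2. These 2 libraries were thus nearer to each other than to any library of their own group. The labels name no separate cultures, so p-values reflect spread that may be technical only.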

Additional observations from a re-analysis of the deposited data

How the results depend on the processing

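As fitted, 41 genes (9 higher, 32 lower), 0 members and 0 partners passed, and the members' median log2 fold change was -0.07. DESeq2 size factors and no filter left 0 members and 0 partners. Library size alone gave 4510 of 19017 genes (2190 higher, 2320 lower), 9 members higher and 6 lower of 31, and 11 partners. It gave a median of 0.043, with the median of all genes at 0.13, against 0.02 with TMM. The DESeq2 Wald test gave 6915 genes, 10 and 9 members and 14 partners; limma-voom gave 27 genes. A filter of 1 CPM in 3 libraries left 14086 genes and gave 5266 of them (2264 higher, 3002 lower). It gave 9 and 7 members (53.3% of the 30 left), 11 partners and a median of -0.0053 over these 30 members. The threshold of 0.1 gave 8317 genes, 10 and 9 members and 18 partners. The GC correction gave 72 genes and a median of -0.0065, and with the threshold of 0.1 it gave 1488 genes, 2 members higher and 3 lower, and 3 partners. Without 1 library each, genes ran from 0 to 6460, members from 0 to 8 higher and 0 to 9 lower, partners from 0 to 15 and the median from -0.1323 to 1e-04. With the GC correction as well, a combination chosen after seeing the data like that with the threshold of 0.1, genes ran from 17 to 1425, members from 0 to 2 higher and 0 to 3 lower, partners from 0 to 1 and the median from -0.0488 to 0.0055.

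Labels give both groups replicate numbers 1, 2 and 3. Deviations of same-numbered libraries correlated at 0.3278, -0.0321 and 0.2898, and those of differently numbered libraries at -0.3504 to 0.0904. For replicates 1 and 3 the same-numbered value was the highest. These deviations were not corrected for GC content. The median level of the GC-rich genes fell with the replicate number in both groups. The correlations therefore cannot tell pairing from this trend. The labels state no pairs, so the main fit took the libraries as unpaired, and this choice changes the calls. The replicate block gave 8487 of 19017 genes (3783 higher, 4704 lower), 10 members higher and 11 lower (67.7% of members), and 17 partners. The replicate block with the GC correction gave 1562 of 19017 genes (519 higher, 1043 lower) and 2 and 3 members (16.1%). It gave 1 partner and a median of -0.0032.

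Signs of single members turned as follows, on the log2 scale. Library size alone moved Mdm2 to 0.043 and Zmat3 to 0.0353, and no filter moved Tnfrsf10b to -0.0049. The GC correction moved Cdkn1a to 0.3087, Phlda3 to 0.5748, Sesn2 to 0.2465, Ddb2 to -0.0065, Rrm2b to -0.0417 and Rps27l to -0.075. With the replicate block as well these were Cdkn1a 0.3033, Phlda3 0.5942, Sesn2 0.2473, Ddb2 -0.0032, Rrm2b -0.0408 and Rps27l -0.0766. With 1 library left out, the ranges as fitted and then with the GC correction were -0.151 to 0.0456 and -0.3598 to -0.2033 for Mdm2, -0.0188 to 0.0253 and -0.0101 to 0.047 for Tnfrsf10b, and -0.4369 to -0.2018 and 0.1997 to 0.3649 for Cdkn1a. They were 0.4211 to 0.6129 and -0.0187 to 0.0329 for Ccng1, -1.1675 to -0.7265 and 0.4448 to 0.8196 for Phlda3, and -1.1317 to -0.7787 and 0.1818 to 0.3213 for Sesn2. They were 0.2326 to 0.3505 and -0.1019 to 0.0953 for Ddb2, 0.3604 to 0.6315 and -0.0846 to 0.0142 for Rrm2b, and 0.2649 to 0.3521 and -0.1642 to 0.0038 for Rps27l. The causes were not tested.

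With 3 libraries a group, small differences cannot be told from spread, and adjusted p-values crowd just above the threshold, so counts of calls move with 1 library or a small change of threshold. GC content differs between the libraries along the groups. The correction removes every difference that follows GC content, whatever its source.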
